A study of Mus musculus with 8 samples.

Results

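The genes described here encode the motor proteins of the spliceosome, the machine that removes introns from messenger RNA precursors. They are 10 of the 21444 genes found in the count files: the RNA-dependent ATPases Dhx16, Dhx8, Dhx15, Dhx38, Ddx23, Ddx46, Ddx39b, Snrnp200 and Aqr, and the GTPase Eftud2. They were taken by name, with the list chosen by its leading gene: Dhx16 was selected on its measured difference between the genotypes in these data. Values of Prmt5 KO against Control are therefore given as a description and support nothing further. Each gene is represented by 1 transcript, the one with most reads when all 8 libraries are added. Levels are given as CPM, the read count scaled to a common library size.

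RNA was measured in primordial germ cells, the precursors of eggs and sperm, of mouse embryos at 11.5 days post coitum. The embryos had a C57BL/6 &129 mixed background, and the cells were sorted by flow cytometry for a dPE_Oct4 GFP reporter. Control embryos were Blimp1Cre;Prmt5flox/+ and Prmt5 KO embryos Blimp1Cre;Prmt5flox/flox, with 4 libraries of each. Both genotypes thus carried Cre recombinase driven from Blimp1, a gene switched on when germ cells are specified, and the Control cells kept 1 Prmt5 copy that was not floxed. Prmt5 encodes the enzyme that makes symmetric dimethylarginine, among others on the Sm proteins of the spliceosome. After PicoPure extraction, 50 pg of RNA went into each library. The labels do not say whether embryos were pooled or whether libraries of 1 genotype had different embryos as their source. Every p-value therefore sets the difference between the groups only against the scatter of these libraries, and that scatter may be technical.

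Splicing is driven by a fixed order of ATPases, each of which remodels the particle once. Ddx39b and Ddx46 act while U2 snRNP is placed on the branch site. Ddx23 releases U1 snRNP, and Snrnp200 unwinds the U4/U6 pair under the control of the GTPase Eftud2. Dhx16 turns the activated spliceosome into the catalytic one, Dhx38 remodels it between both steps of the reaction, Dhx8 releases the spliced messenger RNA and Dhx15 takes the intron lariat particle apart. Aqr sits near the branch site as part of an intron-binding complex. Germ cells use the same constitutive machine as other cells.

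The ATPase core of these proteins carries motif II, the box after which the families are named. The coding sequence around it is shown for 8 members, because it is what these helicases share and because near-identical copies could trade reads; Eftud2 is no helicase, and none is shown for Aqr. All coordinates are on GRCm38, and the capitals mark the 4 codons of the box. In Dhx16 it lies in exon 10 of 20 (chr17:35885508-35885519, plus strand), in Dhx8 in exon 14 of 23 (chr11:101752140-101752151, plus strand). In Dhx15 it lies in exon 4 of 14 (chr5:52171496-52171507, minus strand), in Dhx38 in exon 14 of 27 (chr8:109556065-109556076, minus strand). In Ddx23 it lies in exon 13 of 17 (chr15:98648634-98648645, minus strand), in Ddx46 in exon 13 of 23 (chr13:55660758-55660769, plus strand). In Ddx39b it lies in exon 5 of 11 (chr17:35247090-35247101, plus strand), and in Snrnp200 in exon 15 of 45 (chr2:127221745-127221756, plus strand). The transcript sequences are those of GENCODE, 5′ to 3′.
Dhx16: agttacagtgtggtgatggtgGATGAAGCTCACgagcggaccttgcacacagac
Dhx8: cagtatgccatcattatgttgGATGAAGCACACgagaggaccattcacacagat
Dhx15: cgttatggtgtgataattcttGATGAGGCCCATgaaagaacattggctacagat
Dhx38: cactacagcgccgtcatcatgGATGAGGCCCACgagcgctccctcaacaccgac
Ddx23: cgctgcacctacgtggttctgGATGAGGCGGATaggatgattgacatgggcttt
Ddx46: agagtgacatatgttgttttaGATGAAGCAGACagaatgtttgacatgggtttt
Ddx39b: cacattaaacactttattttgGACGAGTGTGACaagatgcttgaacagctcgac
Snrnp200: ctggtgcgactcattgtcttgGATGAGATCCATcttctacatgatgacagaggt

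The sequences fell into the families known for these proteins. Over these 54 bases, Dhx16 was identical to Dhx8 at 37 positions, to Dhx38 at 37 and to Dhx15 at 35, but to Ddx46 at only 18. Ddx23 and Ddx46, of the DEAD family, were identical at 38. Even the closest pairs shared no exact stretch of 50 bases. All windows of 50 bases in the coding transcripts of the 10 genes were searched. None of Dhx16, Dhx8, Dhx15, Dhx38, Ddx23, Ddx46, Snrnp200 or Aqr occurred in a transcript of another gene, on either strand. For Ddx23 the coding transcript Ddx23-201 was searched, not Ddx23-203, which was counted. Only exact matches to annotated transcripts were sought, so sharing of shorter reads or of reads with mismatches was not tested. Shared windows made up 2.54% of Ddx39b, all with the microRNA gene Mir8094 inside it, and 2.60% of Eftud2, all with Gm26668 on the opposite strand. Whether counting used strand is not stated in the labels or files, so reads of Eftud2 and Gm26668 cannot be told apart over that stretch.

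The libraries held between 1811433 (Control 3) and 6549498 (Prmt5 KO 3) gene counts. Prmt5, the targeted gene, lay between 89.4 and 172 CPM in the Control libraries and between 26.4 and 40.5 CPM in the Prmt5 KO libraries (edgeR adjusted p = 0.0388). Of 12 germ cell markers all 12 passed the filter on low counts, and their summed level was 3103 to 3655 CPM in Control and 3225 to 3575 CPM in Prmt5 KO, with Kit, the receptor of stem cell factor, the most abundant. Of 12 markers of somatic gonad and mesonephros 6 passed. The sum over all 12 was 24.5 to 44.2 CPM in Control, 588.8 in Prmt5 KO 1 and at most 47.3 in the other Prmt5 KO libraries. That excess was led by Acta2, smooth muscle actin, at 208 CPM. Col3a1 (115), Col1a1 (92.9), Col1a2 (52.3), Wt1 (39.3) and Gata4 (29.7 CPM) were also highest in Prmt5 KO 1. So were Pdgfra (24.5), Nr5a1 (14.9), Lhx9 (8.27) and Amhr2 (3.71 CPM), while Emx2 and Tcf21 stayed under 1 CPM in every library. In Prmt5 KO 2, Col1a2 was at 19.2 CPM. Of 6 endothelial markers 3 passed. The sum over all 6 was 279 to 360.4 CPM in Control and 296 to 395 in Prmt5 KO, most of it Pecam1, which germ cells also express. The log2 fold changes of the 3 were -0.03 for Pecam1, -1.18 for Egfl7 (edgeR adjusted p = 0.684) and 2.05 for Tek (edgeR adjusted p = 0.409, DESeq2 adjusted p = 0.0429). Cdh5 and Kdr, which define endothelium, averaged 2.20 and 0.411 CPM in Control, with Cdh5 at 0.699 CPM and Kdr at 0 in Prmt5 KO. Of 6 blood markers 4 were found and 1 passed, Csf1r, with Ptprc, the pan-leukocyte marker, under 1 CPM throughout. Exons of the coding gene Hmgxb3 on the opposite strand overlap 18.6% of the Csf1r transcript, so some reads of Csf1r may belong to Hmgxb3. The part of these other cells in the values of the members was not tested, beyond the values without Prmt5 KO 1. Prmt5 KO 4 and Prmt5 KO 1 stood apart in multidimensional scaling (-2.69 on the first dimension and -2.26 on the second, against 0.21 to 0.86 and -0.39 to 0.89 for the others), so results are also given without both.

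Dhx16 was the member whose groups lay farthest apart. Dhx16 (ENSMUSG00000024422, chr17:35879819-35892670, plus strand) was at 121, 113, 94.9 and 147 CPM in Control 1 to 4 and at 244, 212, 222 and 221 CPM in Prmt5 KO 1 to 4. Every Prmt5 KO library was above every Control library, and the 4 Prmt5 KO values lay close together. The means were 119 ± 21.7 and 225 ± 13.3 CPM (SD, n = 4 each), a fitted fold of 1.89 (log2 fold change 0.92, standard error 0.176). By unadjusted p it was the seventh of the genes higher in Prmt5 KO, but it did not pass over all 10990 genes tested (edgeR adjusted p = 0.159). DESeq2 called it (adjusted p = 0.00108). On simulated counts, DESeq2 called 42 of 10558 unchanged genes and edgeR 2. Of the 2-fold changes planted there, DESeq2 called 45% and edgeR 27%. Those counts were drawn with the dispersions that edgeR had estimated, which may favour edgeR, so they do not decide between both calls. Without Prmt5 KO 1 and 4 the log2 fold change was 0.87, and without Prmt5 KO 1, the library with somatic markers, it was 0.88. It was lowest, 0.75, without Control 2 and 3, the libraries with the fewest counts. In bulk RNA, more transcript per cell and more cells that hold it cannot be told apart.

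**Figure D1:**
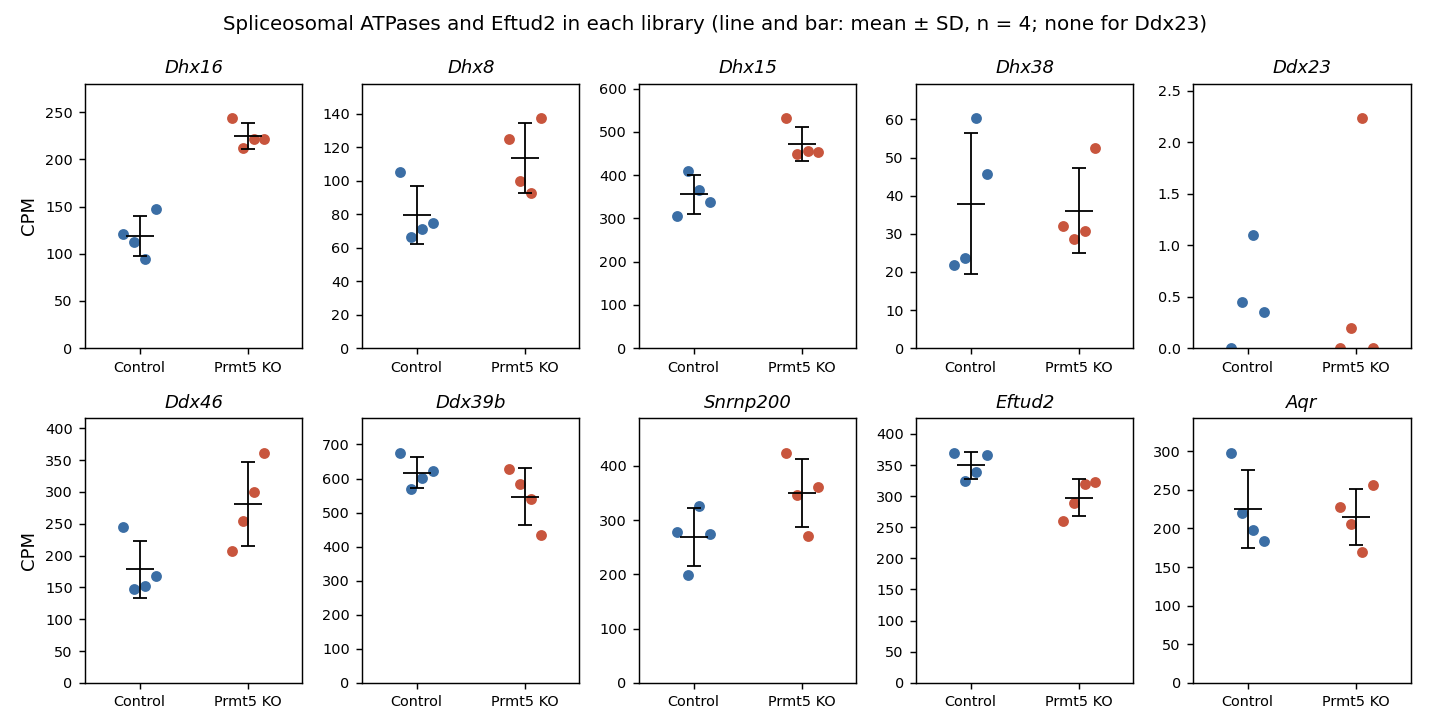
Level of each member (CPM, linear axis from 0) in the 4 Control (blue) and 4 Prmt5 KO (red) libraries, with mean and SD (none for Ddx23). The Prmt5 KO points of Dhx16 (212 to 244) and Dhx15 (449 to 532) sit above all their Control points, those of Eftud2 (259 to 323) sit below, and the other members overlap.

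No member passed the test over all genes. Of the 10 members 9 passed the filter on low counts, and 0 of these were called higher or lower in edgeR, where 0.0273% of all genes tested were called, 0.0182% as higher and 0.0091% as lower; limma voom also called 0. DESeq2 called 1 member, Dhx16, where it called 1.02% of all genes and 0.591% as higher. At an unadjusted p under 0.05 in edgeR 4 members were higher (Dhx16, Dhx15, Ddx46 and Dhx8) and 0 lower, beside 4.47% and 3.69% of all genes (8.15% in either direction). In 2 members all Prmt5 KO libraries lay above all Control libraries, as in 2.63% of all genes, and in 1 member all lay below, as in 2.27%. The members were picked knowing this comparison, so nothing is read from these shares. The median log2 fold change was 0.38 over the 9 members and 0.03 over all genes, and 5 of the 9 were above 0. Without Prmt5 KO 1 and 4 the median of the members was 0.20, with log2 fold changes of 0.63 for Ddx46, 0.35 for Dhx15, -0.14 for Ddx39b and -0.20 for Eftud2.

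Neither early-acting ATPase passed the test. Ddx46 (ENSMUSG00000021500, chr13:55635027-55681256, plus strand), the counterpart of yeast Prp5, was at 245, 148, 153 and 167 CPM in Control and at 208, 254, 300.3 and 361 CPM in Prmt5 KO. Control 1 was higher than Prmt5 KO 1, so the groups overlapped. The fitted log2 fold change of Ddx46 was 0.65 (standard error 0.212, edgeR adjusted p = 0.429). Ddx39b (ENSMUSG00000019432, chr17:35241746-35253707, plus strand) is also known as UAP56 and has a part in mRNA export. It was at 675, 569, 603 and 623 CPM in Control and at 629, 583, 541 and 433 CPM in Prmt5 KO. The groups overlapped, and the lowest value was that of Prmt5 KO 4. Ddx39b had a log2 fold change of -0.18 (standard error 0.136, edgeR adjusted p = 0.789), and -0.08 without Prmt5 KO 4.

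The genes of the activation step gave no call either. Snrnp200 (ENSMUSG00000003660, chr2:127208386-127240451, plus strand), the Brr2 helicase of U5 snRNP, was at 277, 198, 326 and 274 CPM in Control and at 424, 346, 271 and 361 CPM in Prmt5 KO. Prmt5 KO 3 lay within the Control range and the other 3 above it. Snrnp200 had a log2 fold change of 0.38 (standard error 0.181, edgeR adjusted p = 0.615), and 0.20 without Prmt5 KO 1 and 4. Eftud2 (ENSMUSG00000020929, chr11:102838473-102880985, minus strand), the U5 GTPase that holds Snrnp200 in check, was at 369, 324, 338 and 366 CPM in Control and at 259, 289.5, 319 and 323 CPM in Prmt5 KO. All Prmt5 KO values lay below the Control values, the closest pair being Prmt5 KO 4 and Control 2. The log2 fold change of Eftud2 was -0.23 (standard error 0.135, edgeR adjusted p = 0.703).

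Ddx23 (ENSMUSG00000003360, chr15:98645134-98662894, minus strand), the counterpart of yeast Prp28, was close to absent from the counts. Its leading transcript, annotated as a retained intron, had 0, 1, 2 and 2 reads in Control and 0, 1, 15 and 0 in Prmt5 KO, and the coding transcript Ddx23-201 had 0, 1, 0 and 1 reads and 0, 0, 11 and 0. A short retained-intron transcript, Ddx23-202, had 13 reads in Prmt5 KO 1 and 0 in the other 7 libraries. Reads of the gene thus came mostly from Prmt5 KO 3 and Prmt5 KO 1, on different transcripts. For the leading transcript, a count of 0 allows up to 3 counts, or 0.507 CPM in Control 1, 0.507 in Prmt5 KO 1 and 0.748 in Prmt5 KO 4. It was left out of the test by the filter, no fold is given, and why a gene of the core machine was so scarce was not tested.

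Of the ATPases of catalysis, Dhx38 (ENSMUSG00000037993, chr8:109548011-109565861, minus strand), the counterpart of yeast Prp16, was the scarcest tested member. It was at 21.8, 23.7, 60.3 and 45.6 CPM in Control and at 32.1, 28.7, 30.8 and 52.6 CPM in Prmt5 KO. These values rest on 53 to 259 reads a library, and the Control libraries spread over a wider range than the Prmt5 KO libraries. Its log2 fold change was -0.07 (standard error 0.394, edgeR adjusted p = 0.985), with 0.24 without Control 3 and -0.33 without Prmt5 KO 1 and 4. Aqr (ENSMUSG00000040383, chr2:114101170-114187024, minus strand), the Aquarius helicase, was at 298, 220.1, 198 and 184 CPM in Control and at 227, 206, 169.8 and 256 CPM in Prmt5 KO. The groups overlapped, with a log2 fold change of -0.07 (standard error 0.191, edgeR adjusted p = 0.968) that became 0.10 without Control 1 and -0.26 without Prmt5 KO 1 and 4. These standard errors do not show that either gene was at the same level in both genotypes.

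The release factors had log2 fold changes above 0 that did not pass the test. Dhx15 (ENSMUSG00000029169, chr5:52150203-52190514, minus strand), the counterpart of yeast Prp43, was at 306, 411, 366 and 339 CPM in Control and at 532, 449, 457 and 455 CPM in Prmt5 KO. The groups did not overlap, and Prmt5 KO 1 was far above the other 3. Its log2 fold change was 0.41 (standard error 0.136, edgeR adjusted p = 0.431), and 0.35 without Prmt5 KO 1. Dhx8 (ENSMUSG00000034931, chr11:101732919-101767358, plus strand), the counterpart of yeast Prp22, was at 105, 66.5, 71.3 and 74.8 CPM in Control and at 125, 99.8, 92.5 and 137 CPM in Prmt5 KO. Only Control 1 reached into the Prmt5 KO range. Its log2 fold change was 0.51 (standard error 0.230, edgeR adjusted p = 0.596), and 0.27 without Prmt5 KO 1 and 4.

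The members differed far more from each other than between genotypes. Levels were compared per length, as CPM per kilobase of the transcript counted. In Control, Ddx39b was highest at 355 ± 25.6, followed by Dhx15 at 118 ± 14.7 and Eftud2 at 105 ± 6.63 CPM per kilobase (SD, n = 4 each). Ddx39b was above Dhx15 in all 4 Control libraries, while the ranges of Dhx15 and Eftud2 overlapped. Aqr at 46.0 ± 10.4, Snrnp200 at 39.9 ± 7.82, Dhx16 at 35.4 ± 6.47 and Ddx46 at 31.4 ± 7.96 CPM per kilobase formed a middle group in which each neighbour overlapped the next. Dhx8 at 18.4 ± 4.06 and Dhx38 at 8.48 ± 4.14 CPM per kilobase lay below it, each apart from its neighbours.

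In Prmt5 KO, Dhx16 stood at 67.1 ± 3.97 CPM per kilobase (SD, n = 4), below Eftud2 (89.6 ± 8.91) and above Snrnp200 (52.0 ± 9.32) in all 4 libraries. In Control Dhx16 had also been below Eftud2 in all 4 libraries, and had overlapped Snrnp200. Ddx46 (49.5 ± 11.6) and Aqr (43.9 ± 7.43) followed with ranges that overlapped. These levels assume even coverage along a transcript, which did not hold for every member. The short transcript Eftud2-205 covers 567 of the 3324 bases of Eftud2-201 but had 36.4% of its reads in Control. Dhx16-204 covers 490 of the 3351 bases of Dhx16-201 and had 18.2% of its reads in Control and 24.8% in Prmt5 KO. Dhx16-203 shares only 404 bases with Dhx16-201, and its reads came to 46.5% in Control and 59.8% in Prmt5 KO. The level of Dhx16 per kilobase thus rests on uneven coverage that was not the same in both genotypes. In CPM without length, Dhx16 averaged less than Snrnp200 in Control (119 against 269) and in Prmt5 KO (225 against 351). The part of uneven coverage in the order was not tested.

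**Figure D2:**
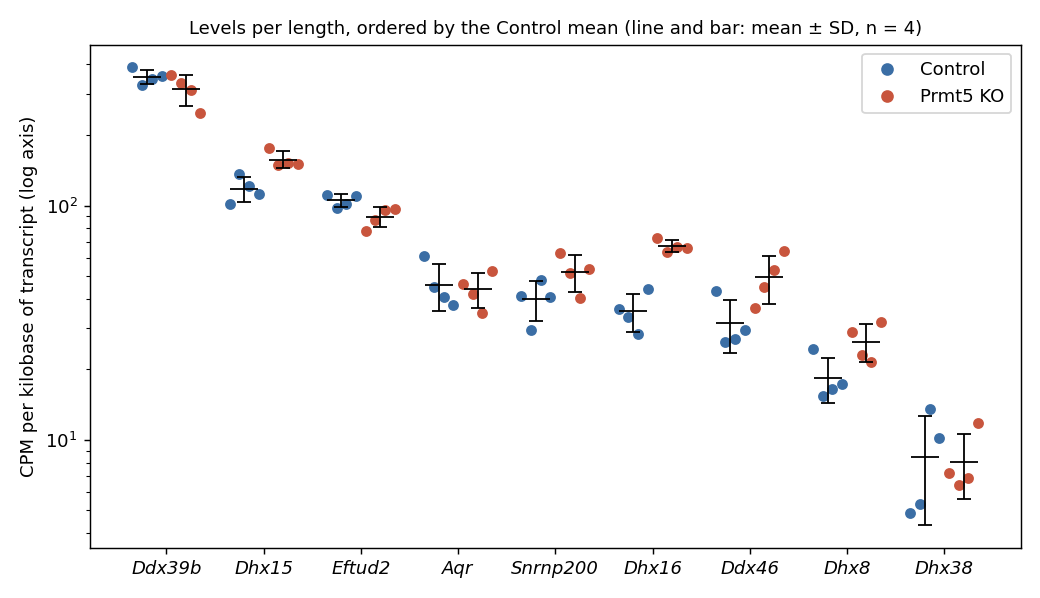
Level per length (CPM per kilobase of transcript, log axis) of the 9 tested members in Control (blue) and Prmt5 KO (red) libraries, ordered by the Control mean, with mean and SD. Ddx39b (355 in Control) lies far above Dhx38 (8.48), and Dhx16 moves from the overlapping middle group to 67.1 in Prmt5 KO.

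The spread between libraries was small for most members. The median coefficient of variation of the 9 members was 19.6% in Control and 16.9% in Prmt5 KO, against 31.7% and 39.9% over all genes tested, many of which had fewer reads. Eftud2 (6.31% in Control, 9.95% in Prmt5 KO) and Ddx39b (7.22% and 15.3%) varied least among the Control libraries. Dhx38 varied most, at 48.8% and 30.9%. Dhx16 varied by 18.3% in Control and 5.92% in Prmt5 KO.

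Dhx16 also has 7 shorter or alternative annotated transcripts, and their reads were compared with those of its full transcript Dhx16-201 as a percent. The level of the gene itself cancels in this ratio. Dhx16-202, a retained-intron transcript that matches bases 2251 to 2919 of the 3351 bases of Dhx16-201, was at 56.9, 62.3, 59.0 and 55.5% in Control and at 71.5, 69.3, 68.5 and 63.0% in Prmt5 KO. Dhx16-203, a retained-intron transcript of bases 2414 to 2817, was at 45.9, 49.6, 45.1 and 45.5% in Control and at 60.4, 62.0, 62.7 and 54.1% in Prmt5 KO. Dhx16-204, which lies wholly in exons of Dhx16-201 between bases 2684 and 3347, was at 21.3, 15.5, 16.2 and 19.9% in Control and at 27.0, 23.0, 25.5 and 23.8% in Prmt5 KO. For these 3 transcripts every Prmt5 KO library was above every Control library. Each had an unadjusted p of 0.0286 and an adjusted p of 0.229 over 32 ratios (two-sided exact permutation), so none passed. The smallest p this design allows is 0.0286, and at least 19 of the 32 ratios would have to be separated for any to pass. All 3 lie in the 3′ part of the gene and share reads, so they are not separate observations.

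The other transcripts of Dhx16 overlapped between the groups. Dhx16-205, of bases 2926 to 3234, averaged 14.5 ± 3.94% in Control against 20.1 ± 0.978% in Prmt5 KO (SD, n = 4 each), where Control 1 (19.6%) reached into the Prmt5 KO range. Dhx16-208 and Dhx16-206, whose matching bases lie between 2352 and 2600, were at 30.8 ± 6.56 and 31.1 ± 7.03% in Control and at 35.5 ± 2.02 and 34.4 ± 2.21% in Prmt5 KO (SD, n = 4 each). Dhx16-207, annotated for nonsense-mediated decay, covers nearly the same exons as the full transcript and was at 99.4 ± 0.432% and 99.8 ± 0.0920%. Reads that fall in shared exons are counted for each transcript, so a retained-intron label does not show that the intron was read.

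Transcripts near the 3′ end of other members overlapped between the groups. Snrnp200-202 (bases 5883 to 6351 of 6745) averaged 30.03 ± 2.30% in Control against 29.7 ± 1.08% in Prmt5 KO, and Eftud2-205 (bases 2356 to 2959 of 3324) at 36.4 ± 1.69% and 36.8 ± 3.59% (SD, n = 4 each). Of the 32 ratios in 7 members 3 were higher without overlap, all of Dhx16, beside 1.59% of 20312 such ratios over all genes. One was lower without overlap, beside 2.16%: Aqr-207, at 18.0, 19.9, 21.1 and 21.6% in Control and 17.2, 17.5, 16.3 and 6.82% in Prmt5 KO (adjusted p = 0.229, two-sided exact permutation), where Prmt5 KO 4 was far below the rest. The ratios of Ddx46, Ddx39b and Dhx8 all overlapped between the groups. A difference in this ratio between Dhx16 and other members was not tested.

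Coverage of transcript ends was measured over all genes, since it could move with these ratios. With each main transcript cut into 3 equal parts, 757 transcripts matched only the third of them, at the 3′ end; for these the median log2 ratio, centred over the libraries, was -0.04 to 0.02 in Control and -0.01 to 0.06 in Prmt5 KO. For 3386 transcripts of the first part it was 0.04 to 0.07 in Control and -0.04 to 0.02 in Prmt5 KO, without overlap. The log2 ratio of Prmt5 KO over Control was 0.22 for Dhx16-202, 0.36 for Dhx16-203 and 0.45 for Dhx16-204. The part of end coverage in these ratios was not tested.

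**Figure D3:**
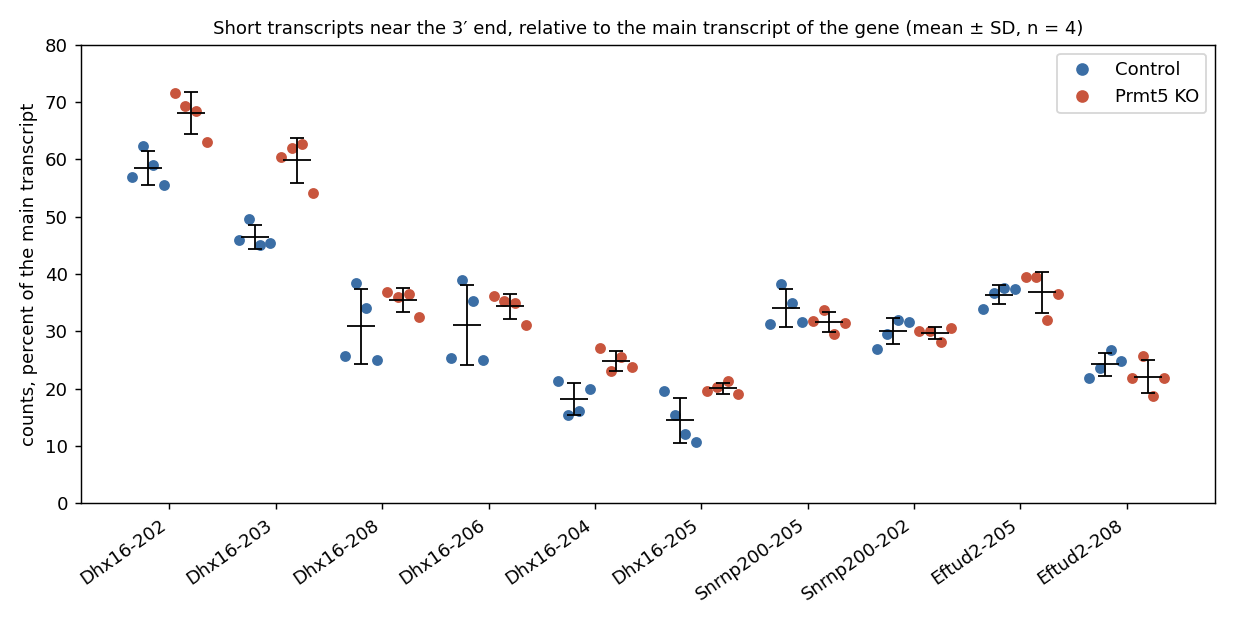
Reads of short transcripts as a percent of the main transcript of the gene (linear axis from 0) in Control (blue) and Prmt5 KO (red) libraries, with mean and SD. Dhx16-202, Dhx16-203 and Dhx16-204 lie higher in all Prmt5 KO libraries (means 68.1, 59.8 and 24.8 against 58.4, 46.5 and 18.2), while those of Snrnp200 and Eftud2 overlap.

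The genes whose levels ran closest to those of Dhx16 over the 8 libraries were found by the root mean square distance of centred log2 CPM. They were Bicral (0.131), a subunit of a BAF chromatin remodelling complex, Gemin8 (0.165), of the SMN complex that loads Sm proteins onto snRNA, the pseudogene Mdm4-ps (0.173), Eloc (0.203), the elongin C adaptor of ubiquitin ligases, and Mdm2 (0.211), the ubiquitin ligase of p53. The median distance of all genes tested was 0.736. Likeness over both groups includes the difference between them, so no test is given. Bicral was at 33.5, 37.1, 31.3 and 43.3 CPM in Control and at 65.5, 56.8, 65.9 and 56.3 CPM in Prmt5 KO. The 5 were picked for likeness to Dhx16, so a similar step between the groups was built into the choice. In all 5 the Prmt5 KO libraries lay above the Control libraries, as in 2.63% of all genes. Control 4 was the highest Control library of Bicral, Gemin8, Mdm4-ps and Eloc, as it was of Dhx16. Likeness within the Control libraries was built into the choice too, since the distance was taken over all 8 libraries. Mdm2 was the only 1 of the 5 that passed over all genes (edgeR adjusted p = 0.0490). Gemin8 was scarce, at 5.49 to 10.9 CPM in Control and 11.8 to 12.4 CPM in Prmt5 KO. Its log2 fold change was 0.68 (standard error 0.529, edgeR adjusted p = 0.789). Exons of Bicral overlap Gm26904 on the opposite strand over 11.7% of its transcript, and reads of Mdm4-ps may belong to its parent gene.

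Among the members themselves, Dhx8 (0.332), Dhx15 (0.345), Ddx46 (0.356) and Snrnp200 (0.407) ran closest to Dhx16. Ordered by distance over all genes tested, they took places 117, 142, 179 and 475. Aqr (0.578), Ddx39b (0.595), Eftud2 (0.612) and Dhx38 (0.716) were farther.

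**Figure D4:**
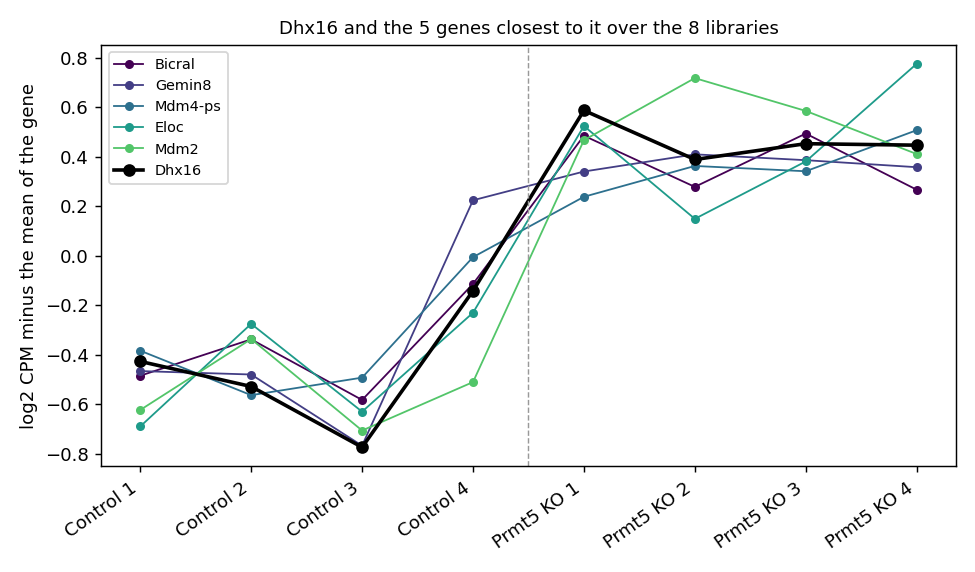
Log2 CPM minus the mean of the gene for Dhx16 (black) and the 5 genes closest to it, in each of the 8 libraries; the dashed line parts Control from Prmt5 KO. All 6 lines step up at the dashed line, which the choice by likeness to Dhx16 favours. The distances from Dhx16 run from 0.131 for Bicral to 0.211 for Mdm2.

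Transcripts of proteins that work with these ATPases, and of other helicases, made up 5 further lists. Of 18 tested partners, such as the G-patch activators, 0 were called and the median log2 fold change was 0.17. That median was 0.077 without Prmt5 KO 4 and 0.029 without Prmt5 KO 1 and 4. Gpkow, which binds and stimulates Dhx16, was at 14.4, 14.3, 19.2 and 9.67 CPM in Control and at 26.8, 14.7, 24.0 and 60.1 CPM in Prmt5 KO. Its groups overlapped, the high value was that of Prmt5 KO 4, and its log2 fold change was 1.13 (standard error 0.483, edgeR adjusted p = 0.579). Rbm17, a U2-associated splicing factor, averaged 114 ± 21.6 CPM in Control against 194 ± 62.9 CPM in Prmt5 KO (SD, n = 4 each; edgeR adjusted p = 0.409).

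The particles that the ATPases remodel gave no call. Of 14 tested genes of the U4/U6.U5 tri-snRNP 0 passed, with a median log2 fold change of 0.05. Prpf31, of the U4/U6 snRNP, was at -1.05 (edgeR adjusted p = 0.613), with the lowest value, 8.47 CPM, in Prmt5 KO 4, and Prpf3, of the same particle, at 0.58 (edgeR adjusted p = 0.674). Exons of Prpf31 overlap Gm15927 on the opposite strand. Of 16 tested genes of the Prp19 complex and related proteins 0 passed, with a median of -0.01. Bud13, of the complex that retains unspliced RNA in the nucleus, was at 1.03 (edgeR adjusted p = 0.544), and Cdc5l, a core subunit, at 0.23.

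Other helicases were also without a call. Of 11 tested helicases that join spliceosomes at other points 0 passed, with a median log2 fold change of 0.06. Ddx17 was at 242, 215, 224 and 214 CPM in Control and at 184, 141, 145 and 199 CPM in Prmt5 KO, without overlap (log2 fold change -0.42, edgeR adjusted p = 0.544). Its paralogue Ddx5 was at 0.24 (edgeR adjusted p = 0.633). Of 10 tested DEAH helicases outside the spliceosome 0 passed, with a median of -0.08 and Dhx37, of ribosome assembly, at 0.55 and Dhx40 at 0.48. In the 5 lists together the unadjusted p was under 0.05 for Rbm17, Gpkow and Bud13 on the higher side and for Ddx17 on the lower, beside 4.47% and 3.69% of all genes tested, and DESeq2 called 0 members of them.

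**Figure D5:**
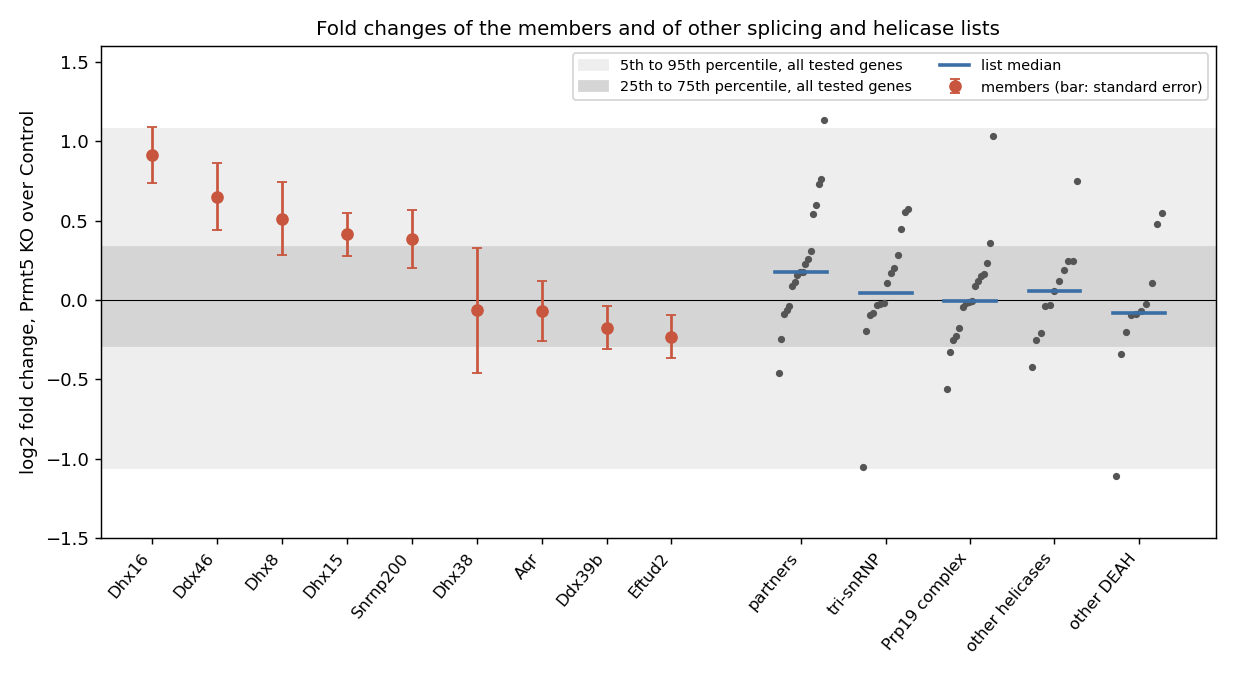
Log2 fold change of Prmt5 KO over Control for the 9 tested members (red, bar: standard error) and for the genes of 5 further lists (grey points, blue line: median). The shaded bands hold the middle of all 10990 genes tested; Dhx16 (0.92) lies inside the wider band, and the list medians lie between -0.08 and 0.17.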

How the data were processed

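The authors deposited whole-number read counts per Ensembl transcript, 1 file a library, per the file headers; transcripts at 0 are not listed. The submitters' processing notes name GRCm38 and mm10. The sources used here do not give the aligner, counter, annotation release or strand. Of 66262 identifiers 64258 (97.0%) matched GENCODE M21. The transcripts of a gene can share reads (1132 of 6532 genes had transcripts with identical counts), so the transcript with the highest total stood for the gene.

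Genes were kept by filterByExpr (minimum count 10), scaled by TMM and tested with edgeR's quasi-likelihood test (robust) on all 8 libraries, with Benjamini-Hochberg adjustment at 0.05. The standard error is the log2 fold change over the square root of F. Transcript ratios (mean of at least 20 counts) were compared by exact permutation over 70 assignments. The members and lists were chosen with earlier results of these data known. Named genes are the members, Prmt5, and from each list those called or, failing that, 2 by lowest unadjusted p. Also named are the most abundant gene of each marker list and the 5 genes closest to Dhx16, passing over clone names. Egfl7, Tek, Cdh5, Kdr, Ptprc and the somatic gonad and mesonephros markers other than Acta2 were named after their values were seen. End coverage was measured after results were seen. On simulated counts of 10990 genes for this comparison edgeR recovered 27% of 2-fold and 72% of 4-fold changes. DESeq2 called 45% and 83%, but 42 of 10558 unchanged genes against 2. The simulated counts used the dispersions that edgeR had estimated, which may favour edgeR. Changes were planted only in genes above 10 CPM, so these rates do not cover scarcer genes. Alternatives covered scaling, tool, filter, replicate block, gene value and left-out libraries. Depth limits the scarce genes: intervals for counts of 0 cover counting error only. Tools were DESeq2 1.42.0, limma 3.58.1 and edgeR 4.0.16 under R 4.3.3, and Biopython 1.88 and matplotlib 3.10.9.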

Additional observations from a re-analysis of the deposited data

Results flagged for a closer look

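In 94 sets of 4 values (members, list means and transcript ratios within a group), 6 libraries lay far from the other 3, where chance would give about 1 in 20, or 4.7. Prmt5 KO 1 was high for Dhx15 (532 CPM) and for the mean of the DEAH helicases outside the spliceosome (5.43 log2 CPM). Prmt5 KO 4 was high for Dhx38 (52.6 CPM), for the mean of the partners of the helicases (6.43 log2 CPM) and for that of the Prp19 complex list (6.65 log2 CPM), and low for Aqr-207 (6.82% of the main transcript). No value of Dhx16 was among them, and the sets share genes and reads.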

How the results depend on the processing

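The count of 3 genes called over all genes became 107 in DESeq2, 7 with no filter, 1 in limma voom, 1 with transcripts summed, 1 without Prmt5 KO 1 and 4, 0 without Control 2 and 3, and 1 to 2 on leaving out each library in turn. With the replicate number as a block it was 1. Same-numbered libraries deviated together with correlations of 0.0016 to 0.0695. Prmt5 KO 1, 2 and 4 matched the Control of their own number best (0.0695, 0.0394 and 0.0504). Prmt5 KO 3 did not (0.0016, against 0.0054 with Control 1). The labels do not say what a number stands for, so the block is given only as an alternative, and pairing by litter or batch was not tested. Members called were 1 (Dhx16) in DESeq2 and 0 in the other fits, and the members' median log2 fold change was 0.20 without Prmt5 KO 1 and 4. Over the 20 alternatives the log2 fold change of Dhx16 ran from 0.75 to 1.09, and its adjusted p from 0.00108 (DESeq2) to 0.760 (edgeR). Dhx8, Dhx15, Ddx46 and Snrnp200 stayed above 0 in all 20, and Ddx39b and Eftud2 below 0. Dhx38 turned to 0.052 in limma voom, 0.024 with the replicate block, 0.10 without Control 2 and 3, and between -0.30 and 0.24 with 1 library left out; Aqr ran between -0.16 and 0.10 with 1 library left out. The median of the tri-snRNP list stayed above 0 in all 20, while those of the Prp19 (-0.06 to 0.05), other helicase (-0.05 to 0.09) and outside DEAH (-0.15 to 0.05) lists took both signs. The cause was not tested.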
